A study of Rattus norvegicus with 4 samples.

Results

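The genes described here encode the receptors of the vomeronasal organ and of taste: every gene with a probe on the array whose symbol starts with Vom1r, Vom2r, Tas1r or Tas2r. They number 158 of 16581 named genes, made up of 54 Vom1r, 68 Vom2r, 3 Tas1r and 33 Tas2r genes, and are read by 184 probes. The RNA came from the NR8383 line, rat alveolar macrophages first obtained by washing out the lung of a normal rat, cultured with 15% serum and used after 20 passages. All cultures used here had been given NM105 titanium dioxide, a mixture of anatase and rutile also called P25, at 3 cm2 of particle surface per cm2 of culture for 4 h. They form 1 group of 4 biological replicates, each hybridised to 1 Cy3 array on 1 slide. The study also had untreated cultures, which were not analysed here, so no value below is a response to the particles and no test between conditions was possible.

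Vomeronasal receptors are G protein-coupled receptors by which rodents read pheromones and other chemical signals in a sense organ at the base of the nasal septum. Type 1 receptors (Vom1r) have a short outer end and signal through the G protein subunit encoded by Gnai2, whereas type 2 receptors (Vom2r) have a large outer domain that binds peptides and proteins and signal through that of Gnao1; both end in opening of the channel encoded by Trpc2. Taste receptors of type 1 (Tas1r) pair up to sense sweet and savoury compounds, those of type 2 (Tas2r) sense bitter ones, and both act through gustducin (Gnat3), phospholipase C (Plcb2) and the channel Trpm5. Taste receptors are also found outside the mouth, for instance in chemosensory cells of the airway lining, and none of these families is a marker of macrophages.

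Few of these receptor genes were well above background, and all that were are vomeronasal. Of the 158 genes, 11 (6.96%) were well above background on every one of the 4 arrays, against 35.2% of all named genes, and 16 on at least 1 array, against 46.3%. Fewer cells with a transcript and less of it per cell cannot be told apart in such bulk RNA. A gene counts as well above background on an array when the scanner software marked more than 50% of the spots of at least 1 of its probes so. The 5 genes that passed on some arrays only were 2 genes on 3 arrays, 1 on 2 arrays and 2 on 1 array. The remaining 142 (89.9%) passed on none, against 53.7% of all named genes. By family, 9 of 68 Vom2r genes (13.2%) and 2 of 54 Vom1r genes (3.70%) passed on all 4 arrays, and none of the 3 Tas1r or 33 Tas2r genes passed on any array. Replicates 1 to 4 had 15, 12, 14 and 13 passing genes (9.49%, 7.59%, 8.86% and 8.23%). Of all named genes, 45.5%, 36.1%, 39.4% and 39.3% passed on the same arrays.

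**Figure D1:**
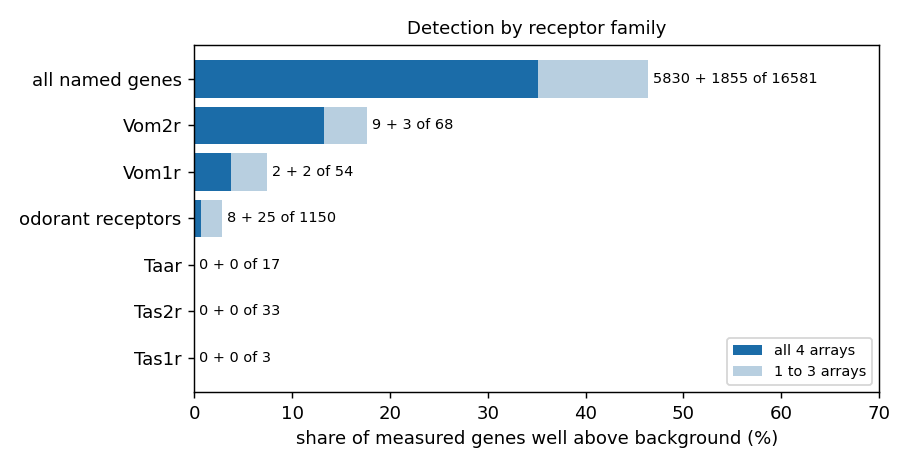
Share of the measured genes of each family that were well above background (horizontal axis, percent) on all 4 arrays (dark) or on 1 to 3 arrays (light), with the counts at the end of each bar. Vom2r genes reach 13.2% on all 4 arrays and Vom1r genes 3.70%, with no taste receptor gene on any array.

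Other chemosensory families were also largely without calls. Of 1150 measured odorant receptor genes, found by a current or older Olr symbol, 8 (0.696%) passed on all 4 arrays and 25 on fewer. This set was widened to older symbols after it was seen that only 55 measured genes keep an Olr symbol, of which 0 passed on all 4 arrays. One of the 55, Olr1, is the lectin-like receptor for oxidised lipoprotein and was left out of the odorant receptors. None of 17 trace amine receptor genes (Taar) or 2 formyl peptide receptor genes (Fpr) passed on any array. The difference in share between Vom2r and odorant receptor genes was not tested, since genes of a family are not replicates.

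The type 2 genes that passed on all 4 arrays were Vom2r1, Vom2r4, Vom2r5, Vom2r6, Vom2r8, Vom2r18, Vom2r34, Vom2r65 and Vom2r72. Each encodes a receptor of the type 2 family, and the ligand of none is given in the sources used here. Signals below are processed intensity, the final signal of the scanner software for a spot. For scale, the 99th percentile of the negative controls lay between 5.07 and 5.96 intensity units on the 4 arrays. Signals of different genes are not comparable, because each probe has its own brightness.

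Vom2r1 is the first measured gene of these families on chromosome 1. The brightest of its 3 probes read 459, 103, 201 and 229.9 units on replicates 1 to 4. Vom2r65, its nearest measured neighbour among the receptors, read 169, 51.5, 72.2 and 74.99 units in the same order. In both genes replicate 1 was highest and replicate 2 lowest. Vom2r4 read 466, 106, 197 and 278 units in the same order of replicates. Vom2r5 read 70.05, 15.8, 38.3 and 45.5 units. Vom2r6 read 721, 145, 219 and 325 units. Again replicate 1 gave the most signal and replicate 2 the least in all 3 genes. Vom2r8, which lies apart from them in the gene order, read 66.4, 19.9, 34.6 and 35.4 units. Vom2r72, on another chromosome, read 243, 57.8, 91.4 and 116 units. These genes repeat the same order at both ends, with replicate 1 highest and replicate 2 lowest.

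The other detected genes had flatter signals before scaling. Vom2r18 read 38.3, 31.7, 39.4 and 38.9 units on replicates 1 to 4. Vom2r34 read 240.1, 116, 340.0 and 234 units, highest on replicate 3. Among type 1 receptors, Vom1r37 read 30.4, 44.2, 33.4 and 29.3 units, and was thus brightest on replicate 2. Vom1r55 read 102, 69.6, 89.8 and 73.3 units. From the highest to the lowest array, the unscaled signal of Vom2r18 differed by 1.25 times and that of Vom1r55 by 1.46 times. That of Vom1r37 differed by 1.51 times and that of Vom2r34 by 2.92 times, against 4.97 times for Vom2r6. After scaling to each array's brightness, given below, these genes were not flatter. Vom2r18, Vom1r55, Vom1r37 and Vom2r34 then differed by 2.02, 1.67, 3.56 and 2.64 times. The genes described before them differed by 1.34 (Vom2r65) to 2.03 times (Vom2r6).

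**Figure D2:**
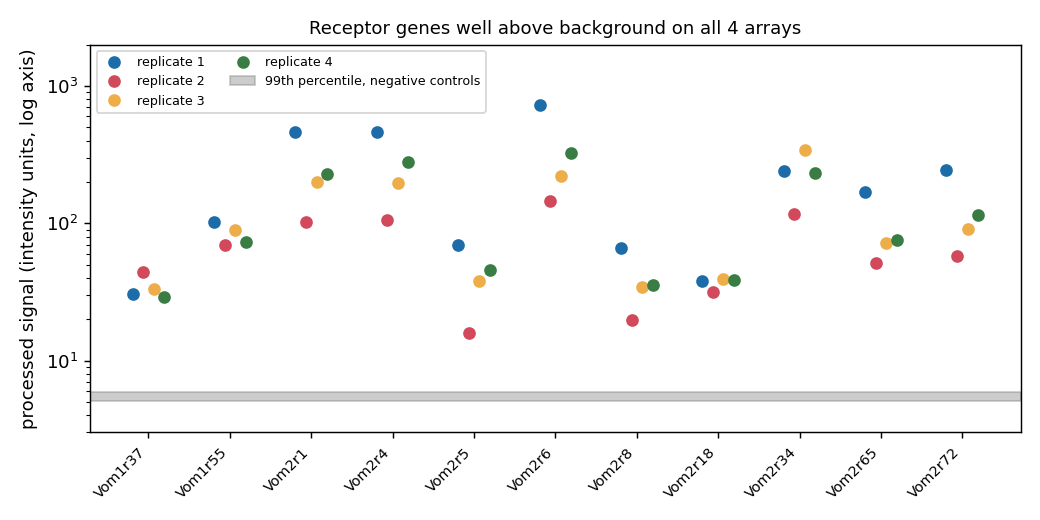
Processed signal (vertical log axis, intensity units) of the 11 receptor genes well above background on all 4 arrays, 1 point per replicate, at the brightest probe of each gene. All points lie above the grey band, the 99th percentile of negative controls (5.07 to 5.96 units), and replicate 1 is the highest and replicate 2 the lowest point for 7 genes of the Vom2r family.

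The arrays themselves differed in brightness. The reference signal, the 75th percentile over probes well above background on all 4 arrays, was 1431, 585, 767 and 831 units on replicates 1 to 4, a ratio of 2.45 between replicates 1 and 2. Over 5830 named genes detected on all 4 arrays, the unscaled signal of replicate 1 over that of replicate 2 had a median of 2.57, with the 5th and 95th percentiles at 1.43 and 4.51. Vom2r1, Vom2r4, Vom2r5, Vom2r6 and Vom2r72 had ratios of 4.47, 4.39, 4.42, 4.97 and 4.21, at percentiles 94.6, 94.0, 94.3, 97.1 and 92.4 of those genes. Vom2r65 and Vom2r8 lay at 3.28 and 3.34, and Vom2r34 at 2.06. Vom1r37 lay at the other end, with a ratio of 0.687 at percentile 0.189, so that only 11 of the 5830 genes had a lower one. Vom2r18 and Vom1r55 had ratios of 1.21 and 1.46, at percentiles 2.32 and 5.42. For 3634 of the 5830 genes, the signal stayed on every array within that of the 11 receptor genes, 15.8 to 721 units. Their ratios had a median of 2.72, with the 5th and 95th percentiles at 1.37 and 4.84. All these percentiles describe 2 arrays and carry no test.

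**Figure D3:**
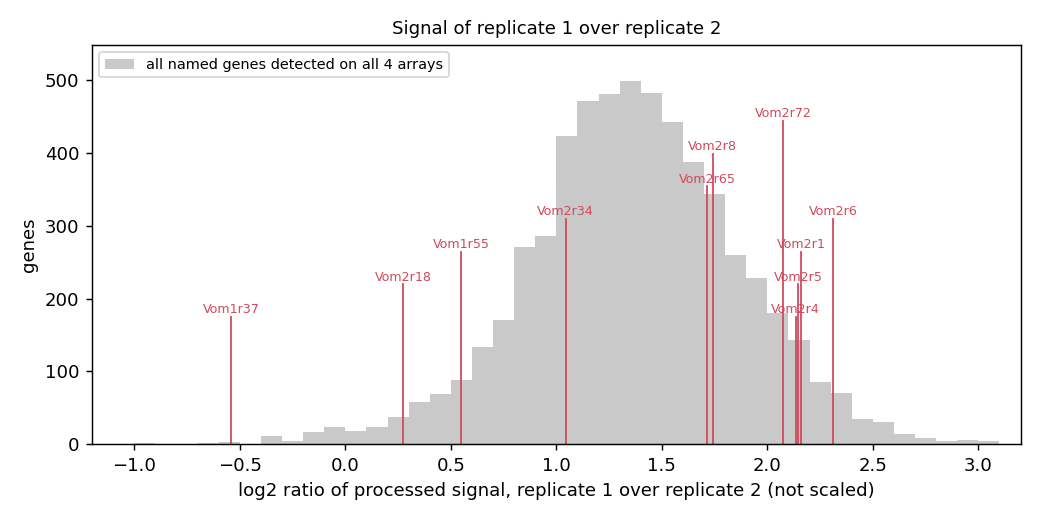
Number of named genes detected on all 4 arrays (vertical axis) by the log2 ratio of unscaled signal of replicate 1 over replicate 2 (horizontal axis), with the 11 receptor genes as red lines. Vom2r1, Vom2r4, Vom2r5, Vom2r6 and Vom2r72 stand on the right flank and Vom1r37, Vom2r18 and Vom1r55 on the left.

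After scaling, a level is the log2 signal relative to the array's reference, given as mean ± SD over the 4 arrays (n = 4). Vom2r1 was at -1.98 ± 0.37, Vom2r4 at -1.91 ± 0.41, Vom2r5 at -4.52 ± 0.46, Vom2r6 at -1.54 ± 0.46 and Vom2r8 at -4.58 ± 0.20. Vom2r65 was at -3.37 ± 0.19, Vom2r72 at -2.95 ± 0.33, Vom2r18 at -4.53 ± 0.47 and Vom2r34 at -1.98 ± 0.62. The type 1 genes Vom1r37 and Vom1r55 were at -4.66 ± 0.76 and -3.37 ± 0.36. The median SD of the 11 genes was 0.41, against 0.23 over all detected genes and 0.25 over the 3634 detected genes whose signals lay within the same range of 15.8 to 721 units on every array. With normexp background correction these medians were 0.23 for the 11 genes, 0.18 for all detected genes and 0.19 for those in the same range of signal. Without replicate 2 the median SD of the 11 genes was 0.24. Scaled levels were lowest on replicate 2 for 7 of the 11 genes, against 32.2% of all detected genes and 36.7% of those in the same range of signal. They were lowest on replicate 1 for the other 4, against 25.0% and 21.7%. Those 4 were Vom1r37, Vom1r55, Vom2r18 and Vom2r34, and they stayed lowest on replicate 1 under each of the 4 other scalings or background corrections. The 7 were Vom2r1, Vom2r4, Vom2r5, Vom2r6, Vom2r8, Vom2r65 and Vom2r72, and this count was 6 with quantile normalization, 6 with scaling over all probes and 2 with normexp background correction, where Vom2r1 and Vom2r4 were left.

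No probe of these genes was printed at more than 1 spot, so the error between spots of a probe is unknown for them and no test between arrays could be run. Other probes, printed at several spots and within the same range of signal, had median SDs between spots of 0.14, 0.10, 0.08 and 0.09 on the log2 scale on replicates 1 to 4. The SDs over arrays of the 11 genes ran from 0.19 for Vom2r65 to 0.76 for Vom1r37. These hold culture, extraction, labelling and hybridisation together.

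All receptor genes with several probes that were detected on all 4 arrays had probes with different calls. Of the 158 genes, 23 had several probes, 20 of them 2 probes and 3 of them 3 probes. In 5 of the 23 (21.7%) at least 1 probe was well above background on all 4 arrays and at least 1 other was not, against 23.7% of all named genes with several probes. These 5 were all of the detected receptor genes with several probes; among all named genes with several probes that were detected on all 4 arrays, 52.7% had probes that differed in this way. In 17 of the 23 no probe passed on any array, a larger share than the 1496 of the 3658 named genes with several probes. A gene without a call cannot have probes that differ in this way, so such genes lower the 21.7% and the 23.7%. The probes of these 17 genes agree only in having no call.

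For Vom2r1, 2 of 3 probes passed on every array and ran in parallel, at 459, 103, 201 and 229.9 units for one and 285, 64.0, 113 and 151 units for the other. The third, A_64_P232286, passed on none and read 13.6, 3.13, 12.0 and 12.7 units. Vom2r65 came closest to full agreement, since its second probe passed on replicates 1, 3 and 4 with 60.9, 28.9 and 26.4 units and missed on replicate 2 with 14.3. The second probe of Vom2r4, A_64_P232269, read 3.37, 3.41, 3.45 and 3.68 units, near the median negative control of 3.52 to 3.84. That of Vom2r18 read 8.69, 3.47, 3.54 and 5.23 units and passed on no array. That of Vom2r34 read 3.15, 4.31, 7.59 and 7.55 units and passed on none either. The remaining 6 detected genes (Vom1r37, Vom1r55, Vom2r5, Vom2r6, Vom2r8 and Vom2r72) have 1 named probe each, so their signal has no second reading. With all probes of a gene required to pass, 6 genes remained, which are these single-probe genes.

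**Figure D4:**
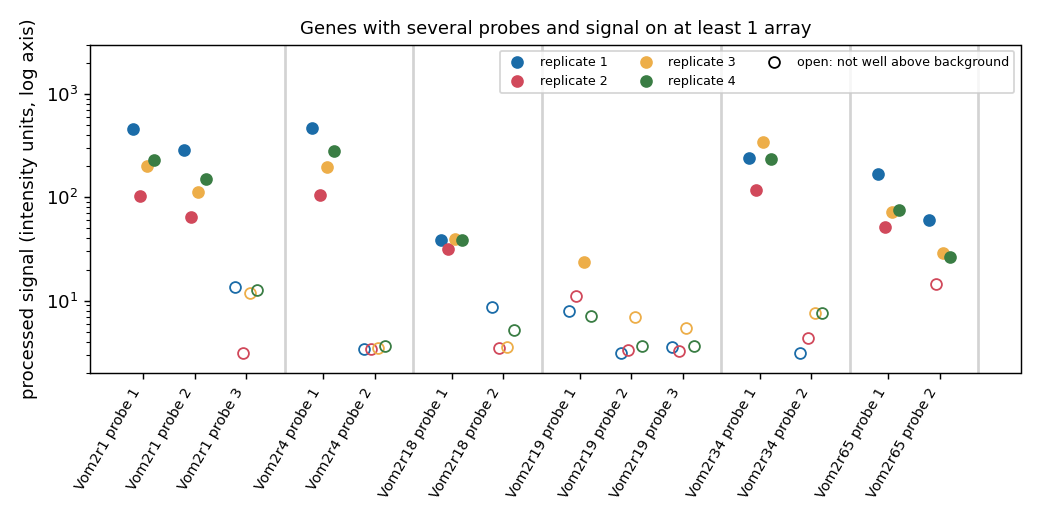
Processed signal (vertical log axis, intensity units) at each probe of the 6 receptor genes with several probes and signal on at least 1 array, 1 point per replicate. Filled points were well above background and open points were not: Vom2r1 and Vom2r65 each have a pair of probes with signal, whereas the second probe of Vom2r4 lies at 3.37 to 3.68 units.

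Vom2r2 read 33.9, 13.7, 24.0 and 24.0 units on replicates 1 to 4 and missed on replicate 2. Vom2r73, a neighbour of Vom2r72, read 43.1, 23.7, 16.6 and 26.0 units and missed on replicate 3. Vom1r61 passed on replicates 1 and 3 with 26.7 and 22.1 units and read 8.42 and 13.2 on replicates 2 and 4. Vom1r23 passed on replicate 1 with 22.8 units and read 3.14, 11.1 and 8.22 on the others. Vom2r19 passed on replicate 3 with 23.8 units at 1 of its 3 probes, and the other 2 probes read 6.99 and 5.44 units there. Replicate 2 gave a call for 1 of these 5 genes, Vom2r73, and replicate 1 for 4 of them.

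Among the genes without a call, the highest single signal was 15.8 units, of Vom2r35 on replicate 1; this gene read 8.01, 10.7 and 3.84 on replicates 2 to 4. The median signal over the probes of the 142 genes was 3.61 to 3.91 units on the 4 arrays, beside a median of 3.52 to 3.84 for the negative controls. The savoury receptor gene Tas1r1 read 13.1, 8.07, 10.4 and 7.50 units. The sweet receptor gene Tas1r2 read 3.45, 3.57, 3.59 and 3.74 units at one probe and 4.63, 3.67, 3.86 and 3.94 at the other, and Tas1r3, the partner of both, read 5.28, 3.59, 3.61 and 4.88. Against the looser limit of the 99th percentile of negative controls, 18 of the 158 genes passed on all 4 arrays, against 44.4% of all named genes. Besides the 11, these were Vom1r61, Vom2r2, Vom2r19, Vom2r55, Vom2r73, Tas1r1 and the bitter receptor gene Tas2r116, which read 11.1, 13.9, 10.0 and 10.4 units. A gene without a call may still be expressed below what the array can show.

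Of the 9 detected type 2 genes, 5 lay together at the start of chromosome 1. The measured receptor genes were put in chromosomal order and divided into 27 blocks wherever neighbours lay over 2 Mb apart, a spacing chosen after the calls were seen, and 4 blocks held the 11 genes. The block at the start of chromosome 1 held 7 measured genes, all Vom2r, of which 5 passed on all 4 arrays (Vom2r1, Vom2r65, Vom2r4, Vom2r5 and Vom2r6), Vom2r2 on 3 arrays and Vom2r3 on none. The next block held 4 genes with Vom2r8 alone detected. The longest block held 51 genes, of which Vom1r37, Vom1r55, Vom2r18 and Vom2r34 passed on all 4 arrays. A block of 5 genes on chromosome 14 held Vom2r72 and, on 3 arrays, Vom2r73. The other 23 blocks had no detected gene, among them the 21 bitter receptor genes that lie together between Tas2r107 and Tas2r140.

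**Figure D5:**
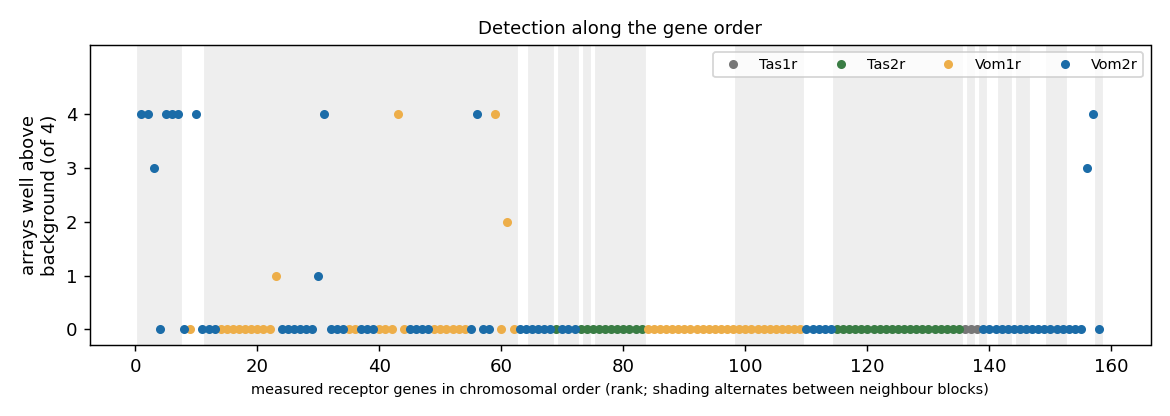
Number of arrays on which each gene was well above background (vertical axis, 0 to 4) for the 158 measured receptor genes in chromosomal order (horizontal axis, rank), coloured by family, with shading that alternates between blocks. The 7 Vom2r genes at the left edge, from Vom2r1 to Vom2r6, include 5 detected on all 4 arrays, and the taste receptor genes all lie at 0.

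Of the 7 genes in the block at the start of chromosome 1, all but Vom2r2 were much alike in the stretches around their annotated starts. RefSeq's table of the GRCr8 assembly gives, for 146 of the 158 genes, 250 bases before to 50 bases after the start. The array files name an older build, rn4, so these windows serve to compare the genes and not to place the probes. The windows of Vom2r1 (chr1:164224-164523 on the plus strand), Vom2r3 (chr1:2759374-2759673 on the plus strand), Vom2r4 (chr1:2889517-2889816 on the minus strand), Vom2r6 (chr1:3025673-3025972 on the plus strand) and Vom2r72 (chr14:1039253-1039552 on the minus strand) are shown because they set an undetected gene, Vom2r3, beside detected genes with near-identical windows, and Vom2r72 is a detected gene on another chromosome with a less similar one. They run 5′ to 3′ on the gene's strand, and capitals mark bases that do not pair with an identical base of Vom2r1 in a global alignment.
Vom2r1: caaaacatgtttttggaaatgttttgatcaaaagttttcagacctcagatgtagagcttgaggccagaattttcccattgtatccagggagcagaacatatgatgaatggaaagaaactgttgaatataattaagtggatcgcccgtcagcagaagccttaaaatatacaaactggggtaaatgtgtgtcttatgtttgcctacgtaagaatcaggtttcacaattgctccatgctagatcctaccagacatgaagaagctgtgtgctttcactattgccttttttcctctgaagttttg
Vom2r3: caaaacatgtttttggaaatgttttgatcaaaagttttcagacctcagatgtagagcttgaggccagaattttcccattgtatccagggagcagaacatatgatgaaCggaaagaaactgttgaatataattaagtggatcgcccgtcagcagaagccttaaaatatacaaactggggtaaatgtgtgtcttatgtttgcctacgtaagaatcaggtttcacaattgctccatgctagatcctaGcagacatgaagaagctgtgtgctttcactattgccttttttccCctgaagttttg
Vom2r4: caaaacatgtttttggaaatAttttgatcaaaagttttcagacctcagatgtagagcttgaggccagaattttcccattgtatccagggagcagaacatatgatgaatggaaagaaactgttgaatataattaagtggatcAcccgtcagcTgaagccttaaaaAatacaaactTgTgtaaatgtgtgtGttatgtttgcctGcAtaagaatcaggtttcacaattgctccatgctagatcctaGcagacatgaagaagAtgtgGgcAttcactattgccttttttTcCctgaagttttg
Vom2r6: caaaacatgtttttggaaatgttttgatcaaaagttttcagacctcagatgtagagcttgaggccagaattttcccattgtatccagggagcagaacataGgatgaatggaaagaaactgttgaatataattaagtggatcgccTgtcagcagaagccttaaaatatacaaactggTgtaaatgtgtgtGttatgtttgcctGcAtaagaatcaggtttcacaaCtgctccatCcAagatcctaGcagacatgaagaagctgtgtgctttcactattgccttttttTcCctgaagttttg
Vom2r72: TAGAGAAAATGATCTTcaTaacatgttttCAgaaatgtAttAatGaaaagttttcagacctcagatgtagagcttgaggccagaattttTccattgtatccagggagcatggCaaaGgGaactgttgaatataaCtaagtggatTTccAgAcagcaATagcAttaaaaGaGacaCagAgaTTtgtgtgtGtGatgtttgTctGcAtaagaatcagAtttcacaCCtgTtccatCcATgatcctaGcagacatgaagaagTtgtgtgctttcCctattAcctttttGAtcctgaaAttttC

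The window of Vom2r3 had 3 bases that differed from Vom2r1 (99% identity), that of Vom2r6 had 12 and that of Vom2r4 had 15. Among the 6 windows of Vom2r1, Vom2r3, Vom2r4, Vom2r5, Vom2r6 and Vom2r65, identity ran from 93.7% to 99%, beside a median of 60% over all 10585 pairs of receptor windows under the same alignment. Vom2r3, the gene closest to Vom2r1, read 4.52, 3.59, 3.70 and 3.87 units and passed on no array. Vom2r2, of the same block, had a window only 58.3% to 59.7% identical to those 6. Vom2r72 and Vom2r73 were 96.7% identical to each other and 79.3% to 82.0% identical to the 6. In their block, Vom2r70 was also 96.7% identical to Vom2r73, and Vom2r67 was 91% identical to Vom2r6. Neither Vom2r70 nor Vom2r67 passed on any array. Whether a probe of one of these genes also reads another was not tested, since the probe sequences were not used here and the windows do not place the probes. The gene behind the signal is to that extent uncertain for every receptor gene with a call, whether or not its window resembles another.

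Of 28 genes whose window was at least 90% identical to that of another measured receptor gene, 6 (21.4%) had a call on all 4 arrays and 21 (75%) had no call. Of the other 118 genes with a window, 4 (3.39%) had a call on all 4 arrays and 111 (94.1%) had none. This difference was not tested, and the 6 are Vom2r72 and the 5 detected genes of the block at the start of chromosome 1. Vom2r8, Vom2r18, Vom1r37 and Vom1r55, all detected, had closest windows at 76.0%, 63.3%, 71.0% and 63.3%. The windows of Vom2r34 and Vom2r19 were not in the table. In each printed window the 50 bases after the annotated start open with atg, the letters of a start codon. Such a window may hold no promoter, so the following counts describe letters only and say nothing about promoters. Of 10 detected genes with a window, 1 (Vom1r55) held TATAAA, the core of a TATA box, on either strand. So did 49 of 132 genes detected on no array and 14.2% of all 33469 windows in the table. The letters GAGGAAG, 1 form of the site of the macrophage factor PU.1, were also in the window of Vom1r55 alone among the 10. They were in 9 of the 132 and in 12.4% of all windows. Shorter forms were not counted, and the printed window of Vom2r1 holds GAGGAA on the opposite strand.

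Calls among genes listed for taste and vomeronasal signalling are read beside all named genes, of which 35.2% passed on all 4 arrays and 53.7% on none. Of 19 listed genes of taste signalling, 17 were measured, of which 3 (17.6%) passed on all 4 arrays, 1 (P2rx3) on a single array and 13 (76.5%) on no array. The 3 were Plcb2, a phospholipase C also common in blood cells, at -4.38 ± 0.28, and the receptor transporter genes Rtp3 and Rtp4 at -1.34 ± 0.26 and -2.15 ± 0.21, of which Rtp4 is also known as an interferon-induced gene. P2rx3, an ATP receptor of taste nerves, passed on 1 array, with 20.9 units on replicate 1. Gnat3, which encodes gustducin, and its partners Gnb3 and Gng13 passed on none. The 16 genes listed for vomeronasal signalling include some that are not signalling genes, such as B2m and the transcription factor gene Tfap2e. Of the 16, 13 were measured, of which 4 (30.8%) passed on all 4 arrays, a share near that of all named genes, and 9 (69.2%) on none. The 4 were Gnai2, used by most cells, at 4.30 ± 0.10, the G protein gamma subunit gene Gng8 at -3.69 ± 0.24, the potassium channel gene Kcnn3 at -1.34 ± 0.32 and B2m, the light chain of MHC class I, at 2.37 ± 0.33. Gnao1, the partner of type 2 receptors, read 5.66, 3.65, 3.47 and 4.39 units on replicates 1 to 4 and passed on none, as did Ano1 and Omp. Trpc2 was not analysed here.

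The markers of cell types are set against the same 35.2% and 53.7% of all named genes. Of 10 measured markers of tuft or chemosensory epithelial cells, 0 passed on any array, with Pou2f3, their defining transcription factor, at 3.39 to 3.74 units. Of 9 measured markers of olfactory or vomeronasal sensory neurons, 1 (11.1%) passed on all 4 arrays, the same Gng8, and 8 (88.9%) on none. Of 12 macrophage markers, 9 (75%) passed on all 4 arrays. They were Cd68 at 2.28 ± 0.14, Spi1, which encodes PU.1, at -0.28 ± 0.08, and Csf1r, Itgam, Pparg, Siglec1, Fcgr2a, Lyz2 and Ptprc. Mrc1 passed on 1 array, and Adgre1 and Marco passed on none.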

How the data were processed

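RNA of 4 cultures was labelled from 100 ng with Cy3 and read on 1-colour arrays. The deposited files hold spot intensity from Agilent Feature Extraction 11.0.1.1, per the submitters' processing notes and the file headers (protocol GE1_1100_Jul11, array design 074036). The steps by which the software corrected background, and any normalization between arrays, are not given in the sources used here; the deposited processed intensity is above 0 at every negative control, and its 75th percentile differs between arrays. By their column names, the deposited flags, coded 0 or 1, mark spots well above background, saturated (0 spots) or outlying.

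The 58717 gene spots per array make 45598 probes. Accessions without version were matched to RefSeq's GRCr8 table, used for names, which named 21109 probes (46.3%) as 16581 genes. Outlier spots (486 to 723 per array; none of these receptor probes) were left out of levels. Log2 signal was set against the array's 75th percentile over the probes detected on all 4 arrays (22.9%). A gene's level is that of its brightest probe. Named were all receptor genes detected on any array, all Tas1r genes, genes whose probes disagree, the brightest gene without a call, and listed genes detected on all 4 arrays. The members, lists and tests were chosen with earlier results of these data known. A planned limma test between arrays had no receptor probe with several spots and was not run. Precision is limited by 4 arrays. The summaries were tested on simulated data. Python 3.11.15, pandas 2.3.3, numpy 2.4.6, biopython 1.88, matplotlib 3.10.9 and, for normexp, limma 3.58.1 in R 4.3.3 were used.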

Additional observations from a re-analysis of the deposited data

Results flagged for a closer look

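The level of Vom2r5 on replicate 2, at -5.21, lay far below the other 3, which were at -4.35, -4.32 and -4.19. The gap took up 0.841 of the range of the 4 arrays, above Dixon's critical value for 4 samples. Of 18 probe profiles examined 1 was marked, and chance marks about 1 in 20. The signal of Vom2r5 on replicate 2, 15.8 units at 1 spot, was the lowest among receptor genes detected on all 4 arrays. With normexp correction Vom2r5 was lowest on replicate 1 instead.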

How the results depend on the processing

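The count of receptor genes well above background on all 4 arrays, 11, was 18 with the 99th percentile of negative controls as the limit and 6 with all probes of a gene required; it was 11 to 12 with each replicate left out. The count without a call, 142, was 109 of 158 with the negative control limit, where 5504 of 16581 named genes passed on no array. It was 142 to 143 with each replicate left out. The count of genes whose probes differ, 5, was 6 with the negative control limit and 4 to 5 with each replicate left out. Asking for any or all spots changed none of the 3 counts, since each receptor probe has 1 spot. The median SD of detected genes, 0.41, was 0.23 with normexp correction (offset 50) on the median signal. It was 0.24 to 0.45 with each replicate left out, lowest without replicate 2, and the cause was not tested. Without the filter on dim probes, which lets in genes without a call, the median SD was 0.58. Of the 11 levels, all stayed within 1 SD under quantile normalization and without replicate 1, 3 or 4, while 4 moved further without replicate 2, 7 under normexp and 5 with the mean over probes. Scaling over all probes and to the median of detected probes shifted the median of all detected genes by 5.18 and 2.06 and normexp by 0.28. The planned test between arrays and its alternatives gave no value for these genes. No paired analysis was possible because the samples form 1 group. Signals near the negative controls limit what can be seen.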
